A study of Mus musculus with 8 samples.

Results

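The genes described here encode enzymes and subunits that write, erase or read histone acetylation or move nucleosomes: 9 lysine acetyltransferases, 11 zinc-dependent histone deacetylases, 3 sirtuins, 2 BET acetyl-lysine readers, 9 subunits of the SWI/SNF remodelling complexes and 2 corepressors. They were chosen by name, 36 of the 21627 protein-coding genes of the mouse assembly, and each was followed through the H3K27ac peaks that overlapped its gene span in mm10 or the 20 kb to each side. Acetyltransferases such as CBP (Crebbp) and p300 (Ep300) place the acetyl groups on histone H3 that mark active promoters and enhancers, deacetylases remove them, and BET proteins bind acetylated lysines. In neurons, activity acts on this system itself: calcium entry leads class IIa deacetylases out of the nucleus, away from the MEF2 transcription factors they repress, and recruits CBP to activity-regulated enhancers. SWI/SNF complexes, called BAF complexes in mammals, exchange subunits as neural progenitors become neurons.

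The study mapped H3K27ac by chromatin immunoprecipitation with the antibody ab4729 in primary neurons of C57/BL6 mouse embryos. MGE, not spelled out in the labels, usually stands for the medial ganglionic eminence, the embryonic source of many cortical GABAergic interneurons, and CTX for cortex. Libraries came from 4 groups of 2: MGE cultures depolarised with 55 mM KCl for 2 h, MGE cultures left unstimulated, CTX cultures given the same KCl treatment, and CTX cultures left unstimulated. All groups, the unstimulated ones included, had been silenced overnight at day 6 in vitro with 1 µM TTX, which blocks sodium channels, and 100 µM D-AP5, which blocks NMDA receptors, and KCl was added at day 7. Cells were fixed in 1% formaldehyde for 10 min, and reads were 50 bp long. The labels limit what the groups stand for. The source field gives embryonic day 16 for every library, MGE ones included, while the titles give CTX as day 14. Every library carries the cell type of cortical neurons, MGE libraries included. A biological replicate is not tied to an animal, litter or culture. The p-values below therefore rest on how far these libraries spread, and part or all of that spread may be technical.

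The 8 peak lists, made separately for each library, held 36033 to 66823 peaks on chromosomes 1 to 19 and X and covered 21.1 to 44.7 Mb. The second CTX libraries covered most, 44.7 Mb with KCl and 42.9 Mb unstimulated. The level used here is the number of bases in a gene's window that lay in peaks, per Mb called in that library. Read depth is unknown, and acetylated sequence that the caller did not pass is not listed, so a level of 0 is not absence of acetylation. In bulk cultures fewer cells with a mark and less of the mark per cell cannot be told apart. All 36 genes were among the 15533 tested, those with a mean of at least 10 called bp per Mb. Markers of the cultures followed their titles in part. Of 12 MGE and GABAergic markers, 4 were called higher in MGE, Lhx6 among them, where 10.8% of all genes tested were. The rest were not called, although 10 of the 12 differences were positive. At Gad1, Slc32a1, Dlx1 and Sox6 the levels of MGE and CTX libraries overlapped. Of 9 tested cortical glutamatergic markers, 7 were lower in MGE, where 12.9% of all genes tested were. Neurod1, Neurod6 and Emx1 had no called base in any MGE library, and Cx3cr1, Cldn5, Kdr and Tek, markers of microglia and endothelium, had none in any of the 8 libraries. Other markers in the same lists went the other way. Aif1, Pecam1 and Rgs5 had called bases in all 8 libraries, and Csf1r had them in every MGE library and in no CTX library. The zeros therefore do not show that these cells were absent. KCl raised 6 of the 7 immediate early genes checked over both cultures.

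The promoters of these genes were GC-rich. RefSeq promoters (assembly GRCm38.p6, 250 bases before to 50 after a start) were found for 30 of the 36 genes, 43 promoters in all. Hdac1, Hdac3, Hdac10, Kat6a, Arid2 and Smarce1 had no entry. The median GC content was 65.7% in these 43, against 56.7% in the 21044 promoters of all protein-coding genes. The GC box, searched as GGGCGG on both strands, was in 29 of the 43 (67.4%) and in 46.7% of all promoters. The AP-1 motif TGANTCA, the site of FOS and JUN proteins, was in 6 of the 43 (14%) and in 7.04% of all. The cAMP response element TGACGTCA, the site of CREB, which recruits CBP, was in 0 of the 43 and in 2.26% of all, which says only that these letters are not in these windows.

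The promoters of 4 genes that the results below turn on are printed here 5′ to 3′ on the gene's strand, because these genes differed with KCl and show 4 kinds of promoter: one with an AP-1 motif and no GC box, one with neither, one with GC boxes alone and one with both. Capitals mark AP-1 motifs and GC boxes on either strand, and in Crebbp the 2 GC boxes overlap each other. They are Hdac9 at chr12:34528840-34529139 on the minus strand, Hdac8 at chrX:102505109-102505408 on the minus strand, Crebbp at chr16:4213355-4213654 on the minus strand and Smarca2 at chr19:26604910-26605209 on the plus strand.
Hdac9: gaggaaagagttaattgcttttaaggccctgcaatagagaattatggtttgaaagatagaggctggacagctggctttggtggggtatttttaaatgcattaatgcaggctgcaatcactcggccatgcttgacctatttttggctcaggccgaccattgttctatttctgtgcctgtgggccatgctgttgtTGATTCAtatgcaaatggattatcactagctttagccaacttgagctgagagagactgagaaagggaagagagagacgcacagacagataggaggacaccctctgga
Hdac8: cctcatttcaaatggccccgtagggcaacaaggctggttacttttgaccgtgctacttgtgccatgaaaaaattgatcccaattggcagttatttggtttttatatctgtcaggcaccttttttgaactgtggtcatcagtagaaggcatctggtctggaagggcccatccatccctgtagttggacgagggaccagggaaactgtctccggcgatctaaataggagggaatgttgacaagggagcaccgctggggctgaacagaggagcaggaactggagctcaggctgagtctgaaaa
Crebbp: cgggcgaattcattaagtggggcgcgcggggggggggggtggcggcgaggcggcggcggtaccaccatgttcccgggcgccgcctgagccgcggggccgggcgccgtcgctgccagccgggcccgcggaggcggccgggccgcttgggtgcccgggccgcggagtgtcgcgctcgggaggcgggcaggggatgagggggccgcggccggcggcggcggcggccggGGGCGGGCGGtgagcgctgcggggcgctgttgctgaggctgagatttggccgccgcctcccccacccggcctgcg
Smarca2: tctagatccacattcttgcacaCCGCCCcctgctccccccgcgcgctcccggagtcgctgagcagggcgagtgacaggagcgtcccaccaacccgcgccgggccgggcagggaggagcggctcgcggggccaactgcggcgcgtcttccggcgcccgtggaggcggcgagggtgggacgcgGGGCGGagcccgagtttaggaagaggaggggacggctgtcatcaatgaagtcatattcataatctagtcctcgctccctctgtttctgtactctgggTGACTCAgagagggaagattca

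A peak overlapped a listed promoter window of these 300 bases in all 8 libraries for 17 of the 30 genes (56.7%), against 4334 of the 17273 protein-coding genes in the promoter table (25.1%), a comparison that includes genes silent in neurons and was not tested. The Hdac9 promoter above was overlapped by a peak in 8 of 8 libraries. That of Hdac8 was in 6, that of Crebbp in 2 and that of Smarca2 in 0, although peaks flanked the Smarca2 promoter on both sides in every library. Joined over libraries, the peaks of the 36 windows formed 358 regions, of which 82 were called in all 8 libraries and held 63.7% of the called bases. Ep300, Kat5, Hdac1 and Sirt6 had no other kind: each of their 3, 2, 4 and 3 regions was called in every library.

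Taken per length of window, called bases took the largest share at Hdac5, a class IIa deacetylase, with a mean of 10.8% of its window over the 8 libraries (range 7.04% to 13.9%). Sirt6, a nuclear sirtuin that acts on H3K9ac, followed with 7.08% (6.05% to 8.02%). At the other end, Hdac8, a class I deacetylase known for deacetylating the cohesin subunit SMC3, had 0.251% (0% to 0.580%), and Ncor1, the scaffold that holds Hdac3 in a corepressor complex, had 1.12% (0.458% to 1.92%). Without regard to length, Hdac9 ranked first of the 36 in called bp per Mb, with a mean of 495 over the 8 libraries, and only 33rd per length, because its window is 910 kb long. Arid1b, which encodes a DNA-binding BAF subunit, had 324 and 383 in KCl-treated MGE, 542 and 487 in unstimulated MGE, 360.1 and 473 in KCl-treated CTX and 366 and 422 in unstimulated CTX cultures, second to Hdac9 in bp per Mb. Kat7 (HBO1), a histone H3 and H4 acetyltransferase, and Sirt1, an NAD-dependent deacetylase, were next to Hdac8 at the low end with means of 47.3 and 24.6 called bp per Mb. Kat7 had 36.4 and 39.1 in KCl-treated MGE and 45.2 and 48.7 in unstimulated MGE cultures. In CTX it had 65.7 and 40.5 with KCl and 60.2 and 42.8 unstimulated. Per Mb called it passed in no comparison (-0.12 with KCl over both cultures, limma adjusted p = 0.856, and -0.24 for MGE minus CTX, limma adjusted p = 0.465). Sirt1 had 17.5 and 24.4 in KCl-treated MGE, 0 and 36.9 in unstimulated MGE, 17.3 and 35.7 in KCl-treated CTX and 34.7 and 30.3 in unstimulated CTX cultures, so KCl and unstimulated libraries overlapped in both cultures.

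**Figure D1:**
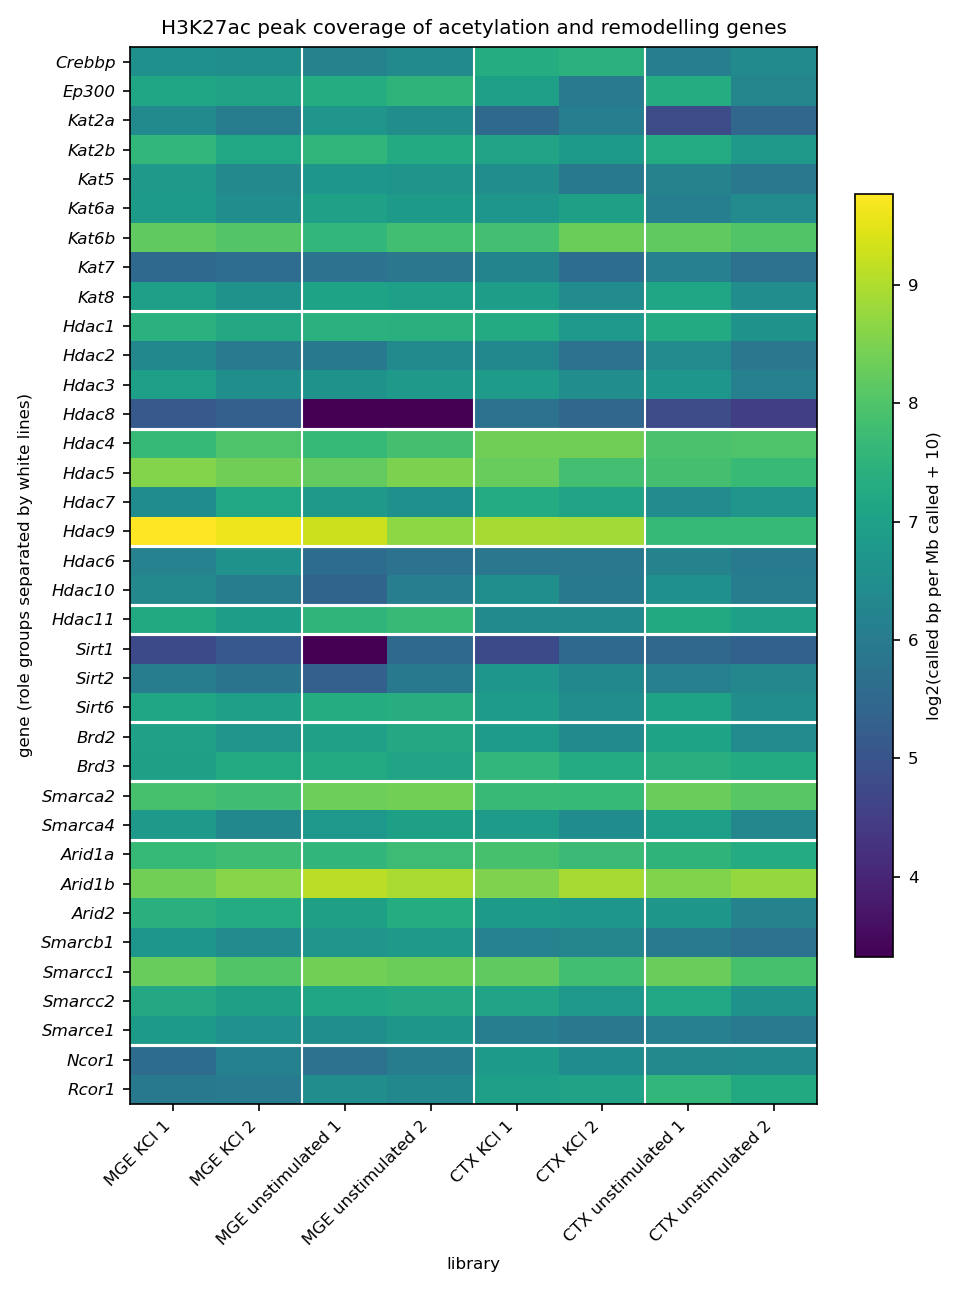
Called bases per Mb called, on a log2 scale after adding 10, for the 36 genes (down the page, in role groups) in each of the 8 libraries (across). Hdac9 is brightest in the MGE KCl libraries at 862 and 774, and Hdac8 is at 0 in both unstimulated MGE libraries.

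With KCl, Hdac9 gained the most called bp per Mb. This class IIa deacetylase, a MEF2 corepressor whose gene spans 870 kb, had 862 and 774 called bp per Mb in KCl-treated MGE, against 608 and 396 in unstimulated MGE cultures. In CTX it had 478 and 459.7 with KCl, against 190.1 and 189.9 unstimulated. KCl libraries lay above unstimulated ones in both cultures with no overlap. The mean was 469 ± 13.1 in KCl-treated CTX and 190.02 ± 0.158 in unstimulated CTX cultures (SD, n = 2 each), a log2 difference of 1.26 ± 0.20 (limma SE) and the only KCl difference in CTX that passed (limma adjusted p = 0.0150). Over all genes 0.238% were called in that comparison, 0.135% higher and 0.103% lower. In MGE the difference was 0.72 ± 0.20 and did not pass (limma adjusted p = 0.0731). Averaged over both cultures, a contrast added after the data had been seen, it was 0.99 ± 0.14 (limma adjusted p = 0.0025). The difference between the cultures' responses was -0.54 ± 0.28 on the log2 scale and did not pass (limma adjusted p = 0.842). With lists trimmed to equal called bases the KCl difference in CTX was 1.41 and did not pass (limma adjusted p = 0.0660). Leaving out any single CTX library took the CTX call away while the estimate stayed between 1.23 and 1.29: the adjusted p from limma was 0.523 and 0.202 without KCl replicates 1 and 2, and 0.235 and 0.0614 without unstimulated replicates 1 and 2. The call over both cultures was lost without CTX KCl replicate 1 (0.98, limma adjusted p = 0.0723), and no call was made on bases not divided by the called Mb.

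Most of the Hdac9 difference lay in many regions inside the gene, outside its promoter. The region over the start printed above, chr12:34527177-34529481, held 1475 and 1780 called bp in KCl-treated MGE, 1394 and 1813 in unstimulated MGE, 1567 and 2116 in KCl-treated CTX and 1226 and 1542 in unstimulated CTX cultures. KCl and unstimulated libraries overlapped there in MGE, and in CTX the KCl libraries were above the unstimulated ones. Its window held 74 regions, of which 37 were called in KCl libraries alone and 6 in unstimulated libraries alone. Counting those found in at least 2 libraries, the numbers were 14 and 0. One region, chr12:34355225-34355951 in the gene body 173 kb downstream of that start, was called in all 4 KCl libraries, with 554 and 658 bp in MGE and 479 and 241 bp in CTX, and in no unstimulated library. Another, chr12:34499115-34500199, held 462 and 982 bp in KCl-treated MGE against 423 and 0 bp in unstimulated MGE cultures, and 811 and 994 bp in KCl-treated CTX against 0 and 0 bp in unstimulated CTX cultures. The other members together had 62 regions called in KCl libraries alone and 40 in unstimulated libraries alone, or 18 and 10 when at least 2 libraries were required. Such regions were not counted over all genes.

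**Figure D2:**
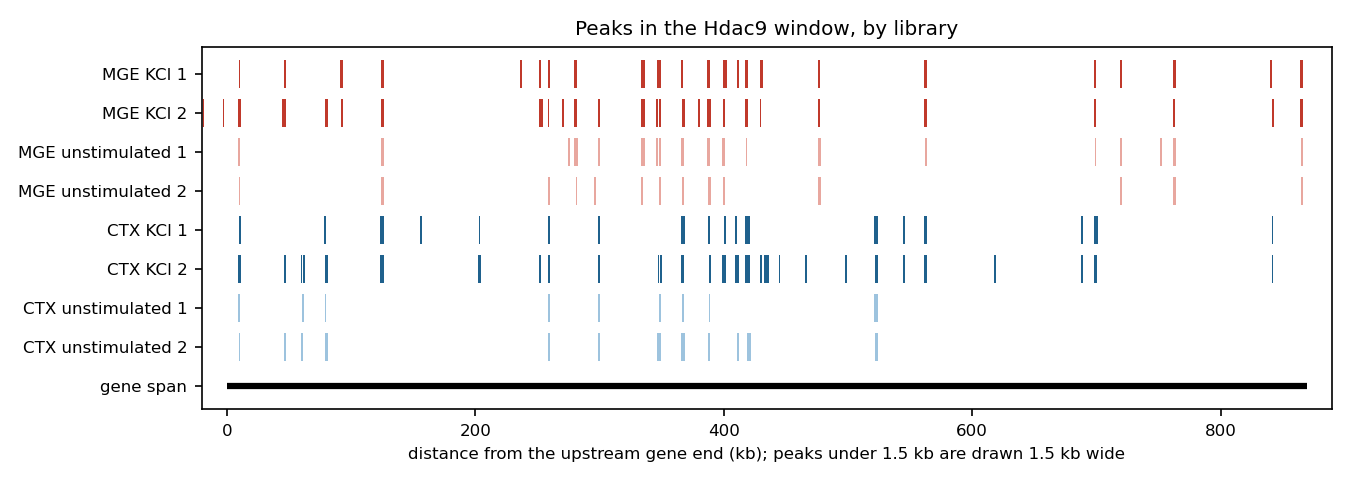
Peaks of each library (1 line per library) along the Hdac9 window, by distance in kb from the upstream end of the gene span, which is the black bar. Of its 74 joined regions 37 were called in KCl libraries alone and 6 in unstimulated libraries alone, spread along the gene.

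Hdac8 had 24.6 and 29.6 called bp per Mb in KCl-treated MGE, against 0 and 0 in unstimulated MGE cultures. CTX libraries had 44.2 and 33.8 with KCl, against 18.4 and 13.0 unstimulated. Both cultures were thus higher with KCl without overlap, from the lowest level of all 36 genes. Hdac8 was the 1 member called in MGE (limma adjusted p = 0.0219), where 2.52% of all genes tested were called, 1.79% higher and 0.727% lower. No fold is given against 0, and the fitted log2 difference, 1.89 after adding 10, became 4.81 after adding 1. The MGE call was lost on unscaled bases (limma adjusted p = 0.289) and with equal called bases (limma adjusted p = 0.124). In CTX the difference was 0.93 ± 0.40 and did not pass (limma adjusted p = 0.382), and over both cultures it was 1.41 ± 0.28 (limma adjusted p = 0.0127). In MGE all of the signal was 1 region over the start, chrX:102504286-102505399, with 528 and 949 bp in KCl-treated MGE, none in unstimulated MGE, 1005 and 1022 bp in KCl-treated CTX and 434 and 558 bp in unstimulated CTX cultures. By the authors' own values its strongest peak had a fold enrichment of 3.49 and 3.94 in KCl-treated MGE, 4.13 and 4.68 in KCl-treated CTX and 3.69 and 4.18 in unstimulated CTX cultures. The MGE call was lost without MGE KCl replicate 1 (limma adjusted p = 0.0823), MGE KCl replicate 2 (0.0822), MGE unstimulated replicate 2 (0.0656), CTX KCl replicate 1 (0.0691) or CTX KCl replicate 2 (0.0686). The call over both cultures was lost without CTX KCl replicate 1 (limma adjusted p = 0.110) or CTX KCl replicate 2 (0.0607).

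Among the acetyltransferases Crebbp passed over both cultures and its paralogue Ep300 did not. Crebbp had 83.4 and 83.1 called bp per Mb in KCl-treated MGE, against 64.0 and 74.5 in unstimulated MGE cultures. It had 150.1 and 163 in KCl-treated CTX, against 57.3 and 75.1 in unstimulated CTX cultures. KCl libraries were above unstimulated ones in each culture. The log2 difference was 1.14 ± 0.25 in CTX, which missed the threshold (limma adjusted p = 0.0760), 0.24 ± 0.25 in MGE (limma adjusted p = 0.788) and 0.69 ± 0.17 over both, which passed (limma adjusted p = 0.0387). The difference between cultures was -0.90 ± 0.35 (limma adjusted p = 0.615). A pair of regions inside the gene was called in both CTX KCl libraries and nowhere else: chr16:4199076-4200499, 13.6 kb downstream of the start, with 774 and 1228 bp, and chr16:4101316-4101898, with 510 and 423 bp. The region over the start, chr16:4212549-4214722, was present in all 8, with 888 and 875 bp in KCl-treated MGE, 607 and 605 in unstimulated MGE, 1197 and 1835 in KCl-treated CTX and 528 and 1687 in unstimulated CTX cultures. A region of 821 to 1159 bp, called in all 8 libraries, lies in the window over the neighbouring gene Trap1, and without the flanks the difference over both cultures was 2.01. Ep300 had 131 and 122 in KCl-treated MGE, 148 and 172 in unstimulated MGE, 114 and 54.4 in KCl-treated CTX and 148 and 66.8 in unstimulated CTX cultures, a difference of -0.31 over both (limma adjusted p = 0.561).

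Coverage was lower with KCl at Smarca2 and Hdac11. Smarca2 (BRM), one of the 2 ATPases that drive SWI/SNF complexes, had 228 and 209.8 called bp per Mb in KCl-treated MGE, against 314 and 329.5 in unstimulated MGE cultures. In CTX it had 195 and 189.6 with KCl, against 307 and 265 unstimulated. All 4 KCl libraries lay below all 4 unstimulated ones. The difference was -0.54 ± 0.19 in MGE and -0.55 ± 0.19 in CTX, neither past the threshold (limma adjusted p = 0.161 and 0.251), and -0.54 ± 0.13 over both (limma adjusted p = 0.0345). Before division by called Mb it was -0.34, and relative to the median of all genes -0.59 per Mb called, -0.56 in unscaled bases and -0.53 with lists trimmed to equal called bases. A wide region with lower values with KCl within each culture was chr19:26768876-26771548, in the gene body 165 kb downstream of the start: 1464 and 1566 bp in KCl-treated MGE against 2542 and 2370 bp in unstimulated MGE cultures, and 928 and 874 bp in KCl-treated CTX against 1506 and 1483 bp in unstimulated CTX cultures. The regions on either side of the start did not keep this order in both cultures. The upstream one, chr19:26603899-26604886, held 529 and 851 bp in KCl-treated MGE, 880 and 913 in unstimulated MGE, 867 and 920 in KCl-treated CTX and 900 and 925 in unstimulated CTX cultures. The downstream one, chr19:26605255-26606975, held 961 and 903 bp in KCl-treated MGE, 576 and 436 in unstimulated MGE, 1051 and 1538 in KCl-treated CTX and 1359 and 1672 in unstimulated CTX cultures. Smarca4 (BRG1), the other ATPase, had 70.3 to 99.3 in KCl-treated MGE and 98.3 to 118 in unstimulated MGE cultures, and 78.0 to 109 in KCl-treated CTX and 68.8 to 114 in unstimulated CTX cultures, with a difference of -0.14 over both cultures (limma adjusted p = 0.809).

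Hdac11, the single class IV enzyme, known to remove long acyl groups, had 142 and 109.8 called bp per Mb in KCl-treated MGE, against 174 and 198 in unstimulated MGE cultures. It had 73.0 and 74.5 in KCl-treated CTX, against 141 and 114 in unstimulated CTX cultures. KCl libraries were lower without overlap in each culture. The difference was -0.62 ± 0.17 over both (limma adjusted p = 0.0453), with -0.54 ± 0.23 in MGE and -0.71 ± 0.23 in CTX (limma adjusted p = 0.283 and 0.225). With equal called bases the CTX difference was -1.27 and passed (limma adjusted p = 0.0155). The region chr6:91164399-91165331, 8.05 kb downstream of the start, held 0 and 248 bp in KCl-treated MGE against 606 and 677 bp in unstimulated MGE cultures and had no peak in CTX. A pair of regions past the 3′ end, chr6:91180228-91180870 and chr6:91180983-91181494, was called in both unstimulated CTX libraries, at 445 and 635 bp and at 476 and 427 bp, and in no other library. Confined to the gene span, the difference was -0.40 and did not pass (limma adjusted p = 0.584).

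In all, 5 of the 36 genes passed over both cultures, 3 higher (Hdac9, Hdac8, Crebbp) and 2 lower (Smarca2, Hdac11), which is 13.9% of them, where 4.83% of the 15533 genes did, 3.32% higher and 1.51% lower. By role these were 1 of 9 acetyltransferases, 1 of 4 class I enzymes, 1 of 4 class IIa enzymes, the class IV enzyme and 1 of 2 SWI/SNF ATPases, and 0 of the 2 class IIb enzymes, 3 sirtuins, 2 BET readers, 7 other SWI/SNF subunits and 2 corepressors. In each culture alone 1 gene passed. The median log2 difference over the 36 was 0.07, against 0.05 over all genes tested, for both cultures, -0.03 against 0.0037 in MGE and 0.05 against 0.08 in CTX. KCl libraries lay above the unstimulated ones in both cultures at 3 of the 36, Crebbp, Hdac8 and Hdac9, where 9.84% of all genes did so. They lay below at 3, Hdac11, Smarca2 and Rcor1, where 4.89% did so. The calls for Crebbp, Smarca2 and Hdac11 were thin: without MGE KCl replicate 1 or 2, MGE unstimulated replicate 1 or 2, CTX KCl replicate 1 or 2, or CTX unstimulated replicate 1, limma's adjusted p for these 3 genes lay between 0.0683 and 0.174, and without CTX unstimulated replicate 2 that for Hdac11 was 0.0540. The calls depended on the scaling. The median of all genes was 0.22 on unscaled bases and 0.16 with equal called bases, and all 5 genes kept their direction under both. On unscaled bases all 5 calls were lost, with limma adjusted p of 0.125 at Hdac8, 0.207 at Hdac9, 0.252 at Crebbp, 0.366 at Hdac11 and 0.511 at Smarca2. With equal called bases the calls for Crebbp (limma adjusted p = 0.115) and Smarca2 (0.0609) were lost and those for Hdac8 (0.0357), Hdac9 (0.0395) and Hdac11 (0.0137) stood.

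Markers of other cells moved with KCl as well. Over both cultures 2 of 5 pan-neuronal markers were lower, Rbfox3 (-0.88 on the log2 scale) and Snap25 (-0.71), 1 of 7 astrocyte markers was higher, Slc1a2 (0.81), and 1 of 7 tested progenitor markers was higher, Vim (1.69), all by limma at the same threshold. The summed level of 8 progenitor markers was 329 and 524 in KCl-treated MGE against 277 and 329 in unstimulated MGE cultures, and 547 and 674 in KCl-treated CTX against 502 and 583 in unstimulated CTX cultures. That of 7 astrocyte markers was 289 and 467 in KCl-treated MGE against 232 and 215 in unstimulated MGE cultures, and 596 and 635 in KCl-treated CTX against 504 and 586 in unstimulated CTX cultures. That of the pan-neuronal markers was 1650.4 and 1602 in KCl-treated MGE against 1793 and 1544 in unstimulated MGE cultures, and 1058 and 1164 in KCl-treated CTX against 1366 and 1207 in unstimulated CTX cultures. Pax6, Hes1 and Vim were at 0 in both unstimulated MGE libraries. The part of these cells in the results at the 36 genes was not tested.

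The remaining class IIa genes did not pass with KCl, and per Mb called each difference was positive in both cultures. In MGE these were 0.07 ± 0.20 at Hdac4, 0.12 ± 0.21 at Hdac5 and 0.15 ± 0.28 at Hdac7 (limma SE). With equal called bases that of Hdac4 in MGE was -0.16, and the others stayed positive. Hdac4 had 188 to 246 called bp per Mb in KCl-treated MGE, 189 to 222 in unstimulated MGE, 319 to 323 in KCl-treated CTX and 232 to 245 in unstimulated CTX cultures, and its difference over both was 0.24 (limma adjusted p = 0.408). Hdac7 ranged over 77.2 to 136 in KCl-treated MGE, 83.5 to 101 in unstimulated MGE, 127 to 147 in KCl-treated CTX and 76.4 to 93.1 in unstimulated CTX cultures (0.39, limma adjusted p = 0.302). Hdac5 had 370.2 and 324 in KCl-treated MGE, 286 and 353 in unstimulated MGE, 298 and 220.0 in KCl-treated CTX and 222 and 195 in unstimulated CTX cultures (0.20, limma adjusted p = 0.524). One Hdac5 region, chr11:102200592-102201495, 29.1 kb downstream of its start, held 756 and 904 bp in KCl-treated MGE and 569 and 499 bp in KCl-treated CTX and no peak in any unstimulated library. With the Hdac9 region at 173 kb it was 1 of 2 among the 358 with that pattern, and 0 regions had the reverse one. In bins of 500 bp, called where at least 50% was covered, Hdac3 and Arid1a also had the first pattern and Rcor1 had the reverse one. How often regions of all genes had these patterns was not counted.

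**Figure D3:**
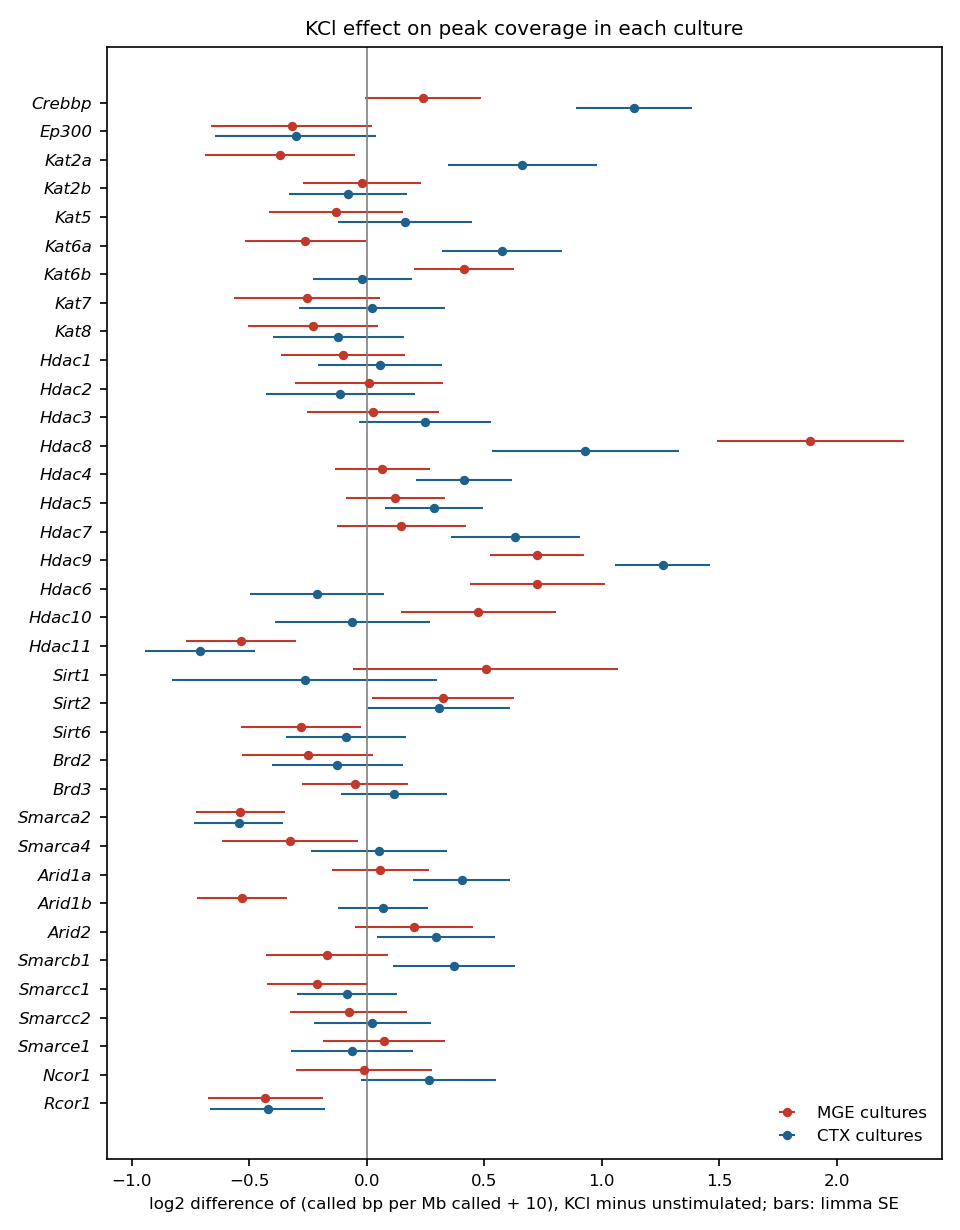
Log2 difference of called bp per Mb called (after adding 10), KCl minus unstimulated, with the limma SE, for each gene in MGE (red) and CTX (blue) cultures. Hdac8 in MGE at 1.89 and Hdac9 in CTX at 1.26 are the differences past the threshold within a culture, and Smarca2 and Hdac11 lie left of 0 in both.

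Crebbp, Smarca2 and Rcor1 show how unevenly peaks in a window were shared. Rcor1 (CoREST), the scaffold that joins Hdac1 and Hdac2 to the demethylase LSD1, had 51.0 and 54.1 called bp per Mb in KCl-treated MGE, against 79.2 and 69.9 in unstimulated MGE cultures. In CTX it had 114 and 121 with KCl, against 184 and 140.0 unstimulated. KCl libraries were lower in each culture, but the difference of -0.43 ± 0.17 over both did not pass (limma adjusted p = 0.184). With equal called bases it was -0.86 over both (limma adjusted p = 0.0241) and -1.19 in CTX (limma adjusted p = 0.0442), and both passed. An intragenic region, chr12:111088584-111089641, held 0 and 248 bp in KCl-treated MGE against 529 and 620 bp in unstimulated MGE cultures, and 0 and 546 bp in KCl-treated CTX against 704 and 959 bp in unstimulated CTX cultures.

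**Figure D4:**
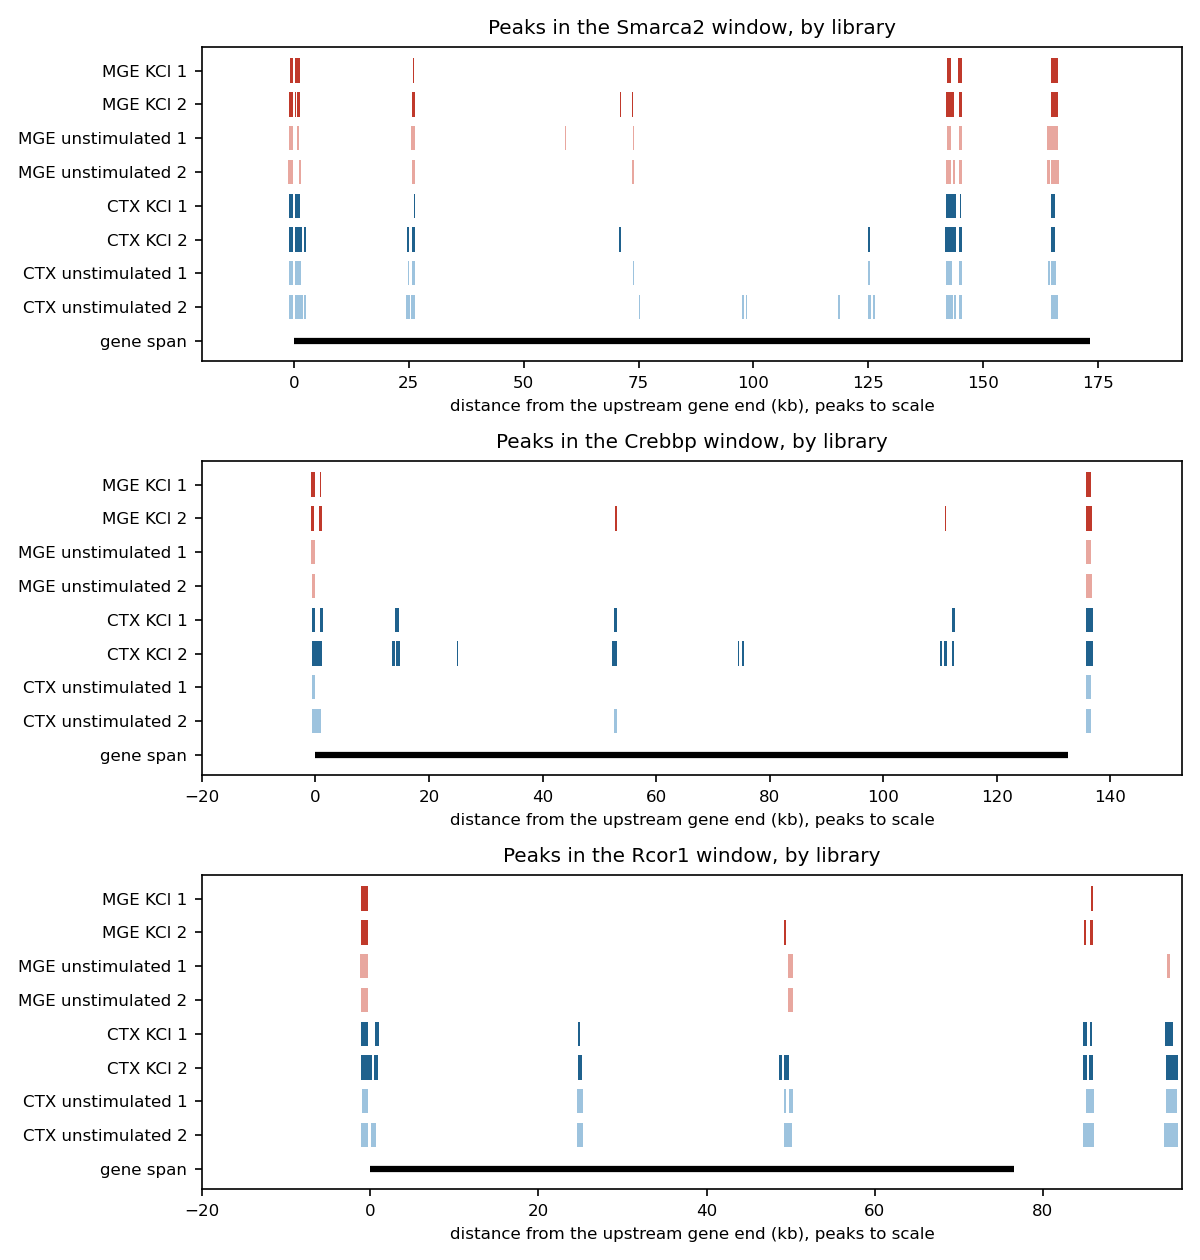
Peaks of each library along the Smarca2, Crebbp and Rcor1 windows, drawn to scale by distance in kb from the upstream end of each gene span (black bar). Within each culture the Smarca2 region near 165 kb is wider in unstimulated than in KCl libraries, 2542 and 2370 bp in unstimulated MGE cultures, and at Crebbp the region near 14 kb is called in the CTX KCl libraries alone.

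No member passed the test of a different KCl response in the 2 cultures by limma, at the same threshold, where 0.0386% of all genes did. Unadjusted, 5 of the 36 had p under 0.05, against 1025 of the 15533 genes tested. Of the 36 differences, MGE minus CTX, 25 were negative, against 8782 of the 15533, with a median of -0.14, against -0.06 over all genes tested. The largest were at Kat2a (-1.03 ± 0.45, limma adjusted p = 0.709) and Hdac8 (0.96 ± 0.56, limma adjusted p = 0.898). Hdac6, the cytoplasmic tubulin deacetylase, had 62.5 and 89.8 called bp per Mb in KCl-treated MGE, against 38.2 and 44.8 in unstimulated MGE cultures, and 48.3 and 49.7 in KCl-treated CTX, against 64.1 and 53.0 in unstimulated CTX cultures (0.94 ± 0.40, limma adjusted p = 0.703). Kat6a (MOZ), a MYST acetyltransferase, had a difference of -0.84 ± 0.36 (limma adjusted p = 0.705), and Sirt1 one of 0.77 ± 0.80 (limma adjusted p = 1.00). Kat6a had 105 and 79.5 called bp per Mb in KCl-treated MGE, 120 and 104 in unstimulated MGE, 95.1 and 116 in KCl-treated CTX and 58.9 and 76.3 in unstimulated CTX cultures. In MGE the most negative differences besides Smarca2 and Hdac11 included Arid1b, whose MGE KCl libraries lay below the unstimulated MGE ones (-0.53 ± 0.19, limma adjusted p = 0.173).

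Between the cultures, treatments averaged, 10 of the 36 genes differed, 7 higher and 3 lower in MGE, which is 27.8% of them, where 23.7% of all genes tested differed, 10.8% higher and 12.9% lower. The share of the genes that differed was thus close to that of all genes. By role, those higher were 1 of 9 acetyltransferases, 2 of 4 class IIa enzymes, the class IV enzyme and 3 of 7 SWI/SNF subunits other than the ATPases, and those lower 1 of 4 class I enzymes and both corepressors. Their median difference was 0.17, against 0.12 over all genes. This median is set by the scaling, since it was -0.29 on unscaled bases and -0.13 with equal called bases, and the differences that follow are given relative to it as well. All 10 kept their direction under both of those scalings, before and after subtraction of the median, but not all kept the call. On unscaled bases the 7 calls higher in MGE were lost. Limma adjusted p was 0.278 at Hdac9, 0.366 at Kat2a, 0.487 at Smarce1 and 0.547 at Arid2. It was 0.564 at Smarcb1, 0.650 at Hdac11 and 0.932 at Hdac5. The 3 lower in MGE stayed called there. With equal called bases the calls for Hdac5 (limma adjusted p = 0.144), Ncor1 (0.114) and Hdac8 (0.292) were lost. Genes not called per Mb called passed there instead. They were Kat6a, higher in MGE (0.62, limma adjusted p = 0.0276), and Hdac4 (-0.40, limma adjusted p = 0.0246) and Hdac10 (-0.80, limma adjusted p = 0.0159), lower in MGE.

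Hdac9 again stood first. Its level was 660 ± 205 in MGE and 329.5 ± 161 in CTX cultures (SD, n = 4 each, both treatments), a log2 difference of 1.06 ± 0.14 (limma adjusted p = 0.0001), or 0.94 relative to the median of all genes, 0.87 on unscaled bases and 1.49 with equal called bases. Its unstimulated MGE libraries, at 608 and 396, overlapped the CTX KCl libraries at 478 and 459.7, and MGE was higher within each treatment. In the gene 5 regions were called in all 4 MGE libraries and in no CTX library, the widest at chr12:34440036-34441637 with 1257 and 1594 bp in KCl-treated MGE and 1076 and 1032 bp in unstimulated MGE cultures, 88.0 kb downstream of the start. Another pair, chr12:34394020-34394416 and chr12:34395029-34396057, was called in all 4 CTX libraries and in no MGE library, the second with 659 and 529 bp in KCl-treated CTX and 781 and 438 bp in unstimulated CTX cultures. Hdac9 thus held 5 of the 10 regions of the first kind in the whole set and 2 of the 10 of the second kind. Its long window held 74 of the 358 regions of any kind. Hdac5 was higher in MGE by 0.50 ± 0.15 (limma adjusted p = 0.0219), which was 0.39 relative to all genes and 0.03 on unscaled bases before subtraction of their median.

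Kat2a (GCN5), the acetyltransferase of the SAGA and ATAC coactivators, had 73.2 and 56.7 called bp per Mb in KCl-treated MGE and 92.4 and 80.4 in unstimulated MGE cultures, against 36.6 and 57.2 in KCl-treated CTX and 18.5 and 33.9 in unstimulated CTX cultures. The difference was 0.93 ± 0.23 (limma adjusted p = 0.0071), with one CTX KCl library above one MGE KCl library. Its gene is 7.74 kb long, and part of the MGE excess lay in the flank. There chr11:100718641-100720157, over the neighbour Rab5c, held 923 and 1100 bp in KCl-treated MGE, 1502 and 1094 bp in unstimulated MGE cultures and no peak in CTX. At the Kat2a start itself the region held 649 and 716 bp in KCl-treated MGE, 625 and 599 in unstimulated MGE, 417 and 483 in KCl-treated CTX and 435 and 616 in unstimulated CTX cultures. Confined to the gene span, the difference was 0.61 (limma adjusted p = 0.0592). Paralogue Kat2b (PCAF) was 160 ± 23.5 in MGE and 120 ± 21.4 in CTX cultures (SD, n = 4 each) and did not pass (0.40, limma adjusted p = 0.130).

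Of the 7 SWI/SNF subunits besides the ATPases, 3 were higher in MGE and 0 lower. Arid2, the PBAF-specific ARID subunit, had 161 and 145 in KCl-treated MGE and 117 and 149 in unstimulated MGE cultures, against 104 and 94.1 in KCl-treated CTX and 96.1 and 64.3 in unstimulated CTX cultures. Smarcb1, a core subunit, had 94.5 and 76.8 in KCl-treated MGE and 92.1 and 103 in unstimulated MGE cultures, against 62.6 and 66.6 in KCl-treated CTX and 52.8 and 43.0 in unstimulated CTX cultures. Smarce1, the BAF57 subunit, had 105 and 86.0 in KCl-treated MGE and 82.9 and 96.9 in unstimulated MGE cultures, against 58.0 and 50.2 in KCl-treated CTX and 60.6 and 53.1 in unstimulated CTX cultures. At these 3 genes all 4 MGE libraries lay above all 4 CTX libraries, as 10.6% of all genes did. The differences were 0.63 ± 0.18, 0.62 ± 0.18 and 0.65 ± 0.18 (limma adjusted p = 0.0180, 0.0219 and 0.0182). An Arid2 region inside the gene, chr15:96332056-96333116, was called in MGE alone, with 488 and 984 bp in KCl-treated MGE and 737 and 524 bp in unstimulated MGE cultures. The Smarcb1 difference came from the flank: chr10:75935513-75936555, over Chchd10, was called in MGE alone with 520 to 968 bp, and confined to the gene span the difference was -0.13. That of Smarce1 was 0.24 within the span (limma adjusted p = 0.508), so at these 2 genes the call held for the window and not for the gene span. Hdac11 was also higher in MGE, 156 ± 38.3 in MGE against 101 ± 33.1 in CTX cultures (SD, n = 4 each), by 0.60 ± 0.17 (limma adjusted p = 0.0155).

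Rcor1, Ncor1 and Hdac8 were lower in MGE, which makes both corepressors of the set. For Rcor1 the level was 63.6 ± 13.3 in MGE and 139.6 ± 31.5 in CTX cultures (SD, n = 4 each), a log2 difference of -1.02 ± 0.17 (limma adjusted p = 0.0006), or -1.14 relative to all genes, -1.15 on unscaled bases and -1.10 with equal called bases. All 4 MGE libraries lay below all 4 CTX libraries. The region chr12:111064006-111064738, inside Rcor1 and 25.0 kb downstream of its start, was called in CTX alone, with 250 and 557 bp in KCl-treated CTX and 658 and 733 bp in unstimulated CTX cultures. Ncor1 had 38.8 and 60.8 in KCl-treated MGE and 44.0 and 55.1 in unstimulated MGE cultures, against 104 and 78.1 in KCl-treated CTX and 72.001 and 74.7 in unstimulated CTX cultures. All MGE libraries were lower (-0.63 ± 0.20, limma adjusted p = 0.0350), and its region over the start held 833 and 1947 bp in KCl-treated MGE, 1013 and 1159 in unstimulated MGE, 2515 and 2769 in KCl-treated CTX and 1695 and 2318 in unstimulated CTX cultures. For Hdac8 the difference was -0.88 ± 0.28 (limma adjusted p = 0.0345) and includes the unstimulated MGE libraries at 0. With equal called bases Ncor1 (-0.64, limma adjusted p = 0.114) and Hdac8 (-0.67, limma adjusted p = 0.292) did not pass, so of the corepressors only Rcor1 stayed called under that scaling. All 4 MGE libraries were also below all 4 CTX libraries at Sirt2, a deacetylase of tubulin (-0.60, limma adjusted p = 0.0557), and at Brd3, a BET reader (-0.24, limma adjusted p = 0.309), which makes 4 genes with Rcor1 and Ncor1, where 10.2% of all genes did so.

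**Figure D5:**
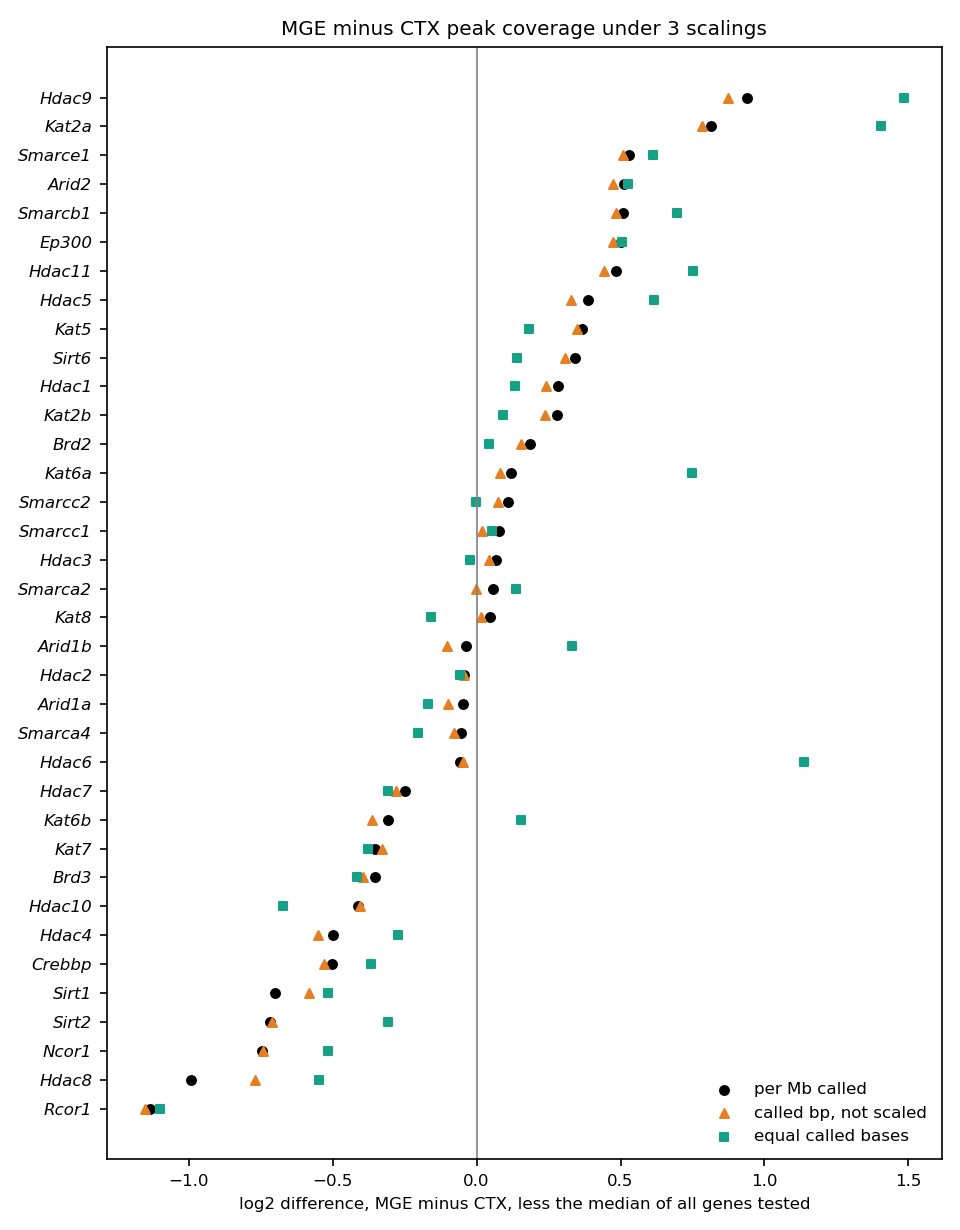
Log2 difference MGE minus CTX for each gene, less the median of all genes tested, with bases per Mb called (circles), unscaled bases (triangles) and lists trimmed to equal called bases (squares). Hdac9 at 0.94 and Kat2a lie at the top and Rcor1 at -1.14 at the bottom under all 3 scalings, while some genes, Hdac6 and Kat6b among them, change side with equal called bases.

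Hdac9, Kat2a and Rcor1 passed whichever single library was left out. With peaks kept only at -log10 q of at least 5, Hdac9 alone stayed called, and Rcor1 missed the threshold (limma adjusted p = 0.127). On unscaled bases Rcor1 stayed called (limma adjusted p = 0.0107), while Hdac9 (0.278) and Kat2a (0.366) did not. With equal called bases all 3 stayed called (limma adjusted p = 0.0058 at Hdac9, 0.0096 at Kat2a and 0.0021 at Rcor1). The other 7 did not: 7 lost the call without MGE KCl replicate 1 (limma adjusted p of 0.0722 to 0.164) and 7 without MGE unstimulated replicate 2 (0.0526 to 0.106), 6 without CTX KCl replicate 2 (0.0559 to 0.116) and 6 without CTX unstimulated replicate 2 (0.0546 to 0.0949), 3 without MGE unstimulated replicate 1 (0.0507 to 0.120) and 3 without CTX KCl replicate 1 (0.0597 to 0.125), and 2 without CTX unstimulated replicate 1 (0.0610 to 0.0763). Markers of other cells differed between the cultures as well. Summed over each whole list, levels were 2406 to 2761 in MGE and 1579 to 1811 in CTX for 12 MGE and GABAergic markers, and 351 to 499 in MGE and 572 to 1004 in CTX for 10 glutamatergic ones. They were 215 to 467 in MGE and 504 to 635 in CTX for 7 astrocyte markers (3 lower in MGE), 120.0 to 220.3 in MGE and 482 to 669 in CTX for 7 oligodendrocyte lineage markers (5 of 6 tested lower), and 277 to 524 in MGE and 502 to 674 in CTX for 8 progenitor markers (3 of 7 tested lower). Pan-neuronal markers summed to 1544 to 1793 in MGE and 1058 to 1366 in CTX (3 of 5 higher), and 6 microglia markers to 138 to 214 in MGE and 68.4 to 112 in CTX (1 of 3 tested higher). For 6 endothelial and mural markers the sums were 158 to 198 in MGE and 180.1 to 226 in CTX (1 of 3 tested lower). Their part in the differences at the 36 genes was not tested.

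Genes outside the set that belong to the same machinery were counted the same way. Of 48 other chromatin genes, all tested, 9 (18.8%) differed between the cultures, where 23.7% of all genes tested did, so the share was not above that of all genes. Higher in MGE were Ncoa2, a steroid receptor coactivator (0.79), Ino80, a remodelling ATPase (0.73), Kat14 of the ATAC complex (0.73) and Smarca1, an ISWI ATPase (1.36). Among those lower were Rcor2, the paralogue of Rcor1 (-1.68), Brd7 of the PBAF complex (-1.31), Dpf3 of the BAF complex (-2.22) and Mta3 of the NuRD complex (-0.53). With KCl, over both cultures, Ncoa2 (0.91) and Phf10, a PBAF subunit (0.87), were higher and Dpf3 (-1.02) and Mta3 (-0.67) lower, by limma at the same threshold. That is 4 of 48 (8.33%), against 4.83% of all genes.

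The remaining genes were not called per Mb called. Kat5 (TIP60), Kat6b (MORF), Kat8 (MOF, an H4K16 acetyltransferase), Hdac1 and Hdac2 (the catalytic pair of the NuRD, SIN3 and CoREST complexes), Hdac3, Hdac6, Hdac10 (a polyamine deacetylase), Sirt6, the BET reader Brd2, Smarca4, Arid1a and the core subunits Smarcc1 and Smarcc2 were called in none of the comparisons on that scale. Hdac10 was lower in MGE on unscaled bases (-0.70, limma adjusted p = 0.0464) and with equal called bases (-0.80, limma adjusted p = 0.0159). Within this group mean levels ran between 56.3 called bp per Mb at Hdac6 and 276 at Smarcc1. Their differences over both cultures with KCl lay between -0.19 at Brd2 and 0.26 at Hdac6, and none had a limma adjusted p under 0.443. A p that misses the threshold does not show that these levels were the same.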

How the data were processed

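H3K27ac was measured by ChIP-seq in 8 libraries, 2 in each of 4 groups (MGE or CTX cultures, KCl or unstimulated). The submitters' processing notes name cutadapt 1.18, Bowtie2 2.3.3, MACS3 3.0.0a7, deepTools 3.4.3 and build mm10, with settings not given in the sources used for this text. The authors deposited 1 narrowPeak list per library, with peak names that carry the word unfiltered. In these lists the fold enrichment, a ratio, and the -log10 q are the authors' deposited values for each peak, and the deposited integer score was not used. The lowest -log10 q lay between 1.30 and 1.35.

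Peaks on chromosomes 1 to 19 and X were merged within a library, and the bases they covered in each gene span (RefSeq) with 20 kb to each side were divided by the library's called Mb. Levels were taken as log2(value + 10), so that folds of low genes are understated, for the 15533 genes with a mean of at least 10. limma 3.58.1 (R 4.3.3), with an intensity trend, fitted the 4 groups with 4 residual degrees of freedom, and p-values were adjusted over all genes by the Benjamini-Hochberg method with a threshold of 0.05. The average over both cultures was added after the data were seen. Python 3.11.15 with pandas 2.3.3 and numpy 2.4.6 did the rest, and the fit was checked on simulated data. The lists give no depth, so no counting intervals are given. All 36 genes are named. Values per library are given for those called in any comparison, the 3 largest and 3 smallest in each of the 4 planned comparisons, the 3 highest and 3 lowest levels and any with a library at 0, and the other 48 chromatin genes are named where called, except 1 that is not reported here. Members and lists were chosen with earlier results of these data known. Alternatives covered the window, the q threshold, the scaling, the pseudocount, the filter, the trend, a replicate block and each library left out.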

Additional observations from a re-analysis of the deposited data

Results flagged for a closer look

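At 2 of the 36 genes the libraries moved with KCl in opposite directions in the 2 cultures without overlap. The share of all genes that did so was not counted, so the 2 cannot be read as a trait of this set. Kat2a had 73.2 and 56.7 called bp per Mb in KCl-treated MGE against 92.4 and 80.4 in unstimulated MGE cultures, and 36.6 and 57.2 in KCl-treated CTX against 18.5 and 33.9 in unstimulated CTX cultures. The difference of the KCl effects, MGE minus CTX, was -1.031 on the log2 scale (SE 0.450, limma adjusted p = 0.709). Hdac6 had 62.5 and 89.8 in KCl-treated MGE against 38.2 and 44.8 in unstimulated MGE cultures, and 48.3 and 49.7 in KCl-treated CTX against 64.1 and 53.0 in unstimulated CTX cultures, a difference of 0.9387 (SE 0.404, limma adjusted p = 0.703). Neither difference passed after adjustment over all genes. In the Hdac6 window, the region on chromosome X between 7947044 and 7947819 was called at 344 and 706 bp in KCl-treated MGE and not called in unstimulated MGE cultures. That region was also called in every CTX library, KCl-treated and unstimulated alike.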

How the results depend on the processing

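The number of the 36 genes called was 1 for KCl in MGE, 1 for KCl in CTX, 10 between cultures, 0 for the difference of the KCl effects and 5 for KCl over both cultures, in that order below. A q threshold of -log10 q of at least 5 gave 0, 0, 1, 0 and 0, the 1 being Hdac9. Bases not divided by called Mb gave 0, 0, 5, 0 and 0, the 5 being Rcor1, Ncor1, Hdac8, Sirt2 and Hdac10, all lower in MGE. Without a filter on low levels the counts were 0, 0, 6, 0 and 1. Equal called bases gave 0 for KCl in MGE and 2 for KCl in CTX, the 2 being Hdac11 and Rcor1 and not Hdac9. The gene span without flanks and 50 kb to each side each gave 2 for KCl in MGE. A pseudocount of 100 gave 2 in MGE and 2 in CTX, and one of 1 gave 0 in CTX and 2 over both cultures. Without the trend the counts were 0 in CTX and 2 over both. Leaving out 1 library gave 0 to 2 for KCl in MGE, 0 to 1 in CTX, 3 to 11 between cultures and 0 to 4 over both. The difference of the KCl effects gave 0 under every alternative run, with 5 at unadjusted limma p under 0.05 as fitted.

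Same-numbered libraries were not treated as pairs: the correlations of their deviations lay between -0.121 and 0.319 over the 6 pairs of groups, and 3 were over 0.1. A fit with the replicate block called 16 genes between cultures and 1, 1, 0 and 5 in the others.

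Single genes turned direction in 8 of 588 refits. With -log10 q of at least 5, Hdac6 with KCl in MGE was -0.11, Hdac11 with KCl in CTX 0.93, Arid2 between cultures -1.4e-05, and the difference of the KCl effects -2.22 at Hdac6 and 0.15 at Kat6a. With the span alone Smarcb1 between cultures was -0.13 and the difference of the KCl effects at Kat2a 0.18. For Sirt1 that difference lay between -0.34 and 1.89 with 1 library left out, the lowest without MGE unstimulated replicate 1. The causes were not tested. The direction and the side of the threshold both held in 443 refits, and calls were lost in 131 and gained in 6. The lists carry no read depth, so weak regions near the q threshold cannot be separated from absent ones.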
